A study of Mus musculus with 20 samples.

Results

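Transcription factor genes of the Sox, Fox, Klf and Gata families, of the bHLH group with its Id inhibitors, of the Tcf genes and of the nuclear receptors were compared between adult mouse retina and newborn mouse cortex. Members were taken by gene symbol from the platform annotation (symbols that start Sox, Fox, Klf, Neurod, Neurog, Ascl, Olig, Tcf, Gata, Nr, Rxr or Esr with a member number or letter, Id1 to Id4, and the Rar, Ror and Thr genes), and 9 genes that match this rule were left aside: Sox9, Sox10, Sox11, Neurod1, Neurod4, Neurod6, Olig1, Tcf7l2 and Rora. The rule found 97 of the 9230 genes named on the array, or 1.05%. They were 27 Fox genes, 26 nuclear receptors, 11 Klf genes, 10 Sox genes, 9 Tcf genes, 6 Gata genes, 5 proneural or oligodendrocyte bHLH genes and 3 Id genes. The rule reads symbols only, and the families themselves were chosen with earlier results of these data known.

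Total RNA came from a pool of adult C57/B6 retina and a pool of Swiss-Webster cortex taken at postnatal day 1. Both pools were labelled with biotin and each was run on 5 CodeLink 1-colour arrays at a first site and on 5 at site 2, so the 20 arrays fall into 4 groups of 5. The study was set up to measure the variation between arrays and between sites. Tissue, strain and age differ together between the pools and cannot be told apart, and a group holds technical replicates of 1 pool, so p-values here measure only the spread between arrays. Fewer cells of a type and less RNA per cell cannot be told apart in such bulk RNA either.

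Values are the deposited linear intensities, in which 1 is about the median probe of an array (array medians ran from 0.927 to 0.963). Precision is limited by the number of arrays. Differences between groups are taken within a probe, since the brightness of different probes is not a measure of relative RNA level. Cortex replicate 5 of site 2 stood apart: it was alone, above or below its 4 partners by the gap test used for single arrays, in 17.7% of probes, against 0.170% to 3.27% for the other 19 arrays. Calls that rest on it are given with and without it. Photoreceptor markers fitted the labels: 8 of 8 tested were higher in retina at each site, with a summed intensity (over the values present) of 408 to 522 in retina and 20.2 to 28.9 in cortex on the first-site arrays, and 611 to 679 against 15.2 to 19.8 at site 2. Of 5 cortical excitatory neuron markers, 4 were higher in cortex at each site.

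As background, these families share a few ways of binding DNA. Sox proteins and the Lef/Tcf group bend DNA with an HMG box, Fox proteins bind through a winged helix, Klf and Gata proteins use zinc fingers, and bHLH proteins pair up on E-box sequences, where Id proteins act as partners that cannot bind DNA. Nuclear receptors are transcription factors that many hormones, vitamin derivatives and lipids switch on or off, and several of them work as partners of the retinoid X receptors. In the nervous system, proneural bHLH, Sox and Fox factors act in the specification and maturation of neurons, and in the adult retina nuclear receptors take part in photoreceptor identity and the daily clock.

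Retina and cortex differed in 30 of the 93 tested members at the first site and in 28 at site 2. A member was called when the limma p-value, adjusted over all 10339 probes tested, was under 0.05 and the levels differed 2-fold or more. The share of members was 32.3% at the first site, beside 24.9% of all probes, and 30.1% at site 2, beside 24.6%. At the first site 9 members were higher in retina (11.9% of all probes were) and 21 were higher in cortex (13% of all probes). At site 2, 9 were higher in retina (11.1% of all probes) and 19 in cortex (13.5%). Both sites called 23 members in the same direction, 24.7% of those tested beside 19.8% of all probes. Of these, 8 were higher in retina (9.31% of all probes) and 15 higher in cortex (10.5%). The retina list consisted of 7 nuclear receptors and Klf9, and the cortex list held Sox, Fox and Klf genes, Neurod2, Tcf4 and the receptors Nr2f1 and Nr4a2.

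Groups did not overlap in 46 of the 93 tested members at the first site, where 53.3% of all probes did not, and in 46 at site 2, where the figure was 48.2%. The median log2 difference, retina minus cortex, was -0.18 over the tested members at the first site and -0.30 at site 2, beside -0.04 and -0.05 over all probes. The sign was the same at both sites in 74 of 93 members. Both sites ran the same pools and this share was not taken over all probes, so it is not read as particular to the members. Differences of at least 4-fold were called in 11 members at the first site, where 8.75% of all probes were, and in 10 at site 2, where 8.14% were.

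**Figure D1:**
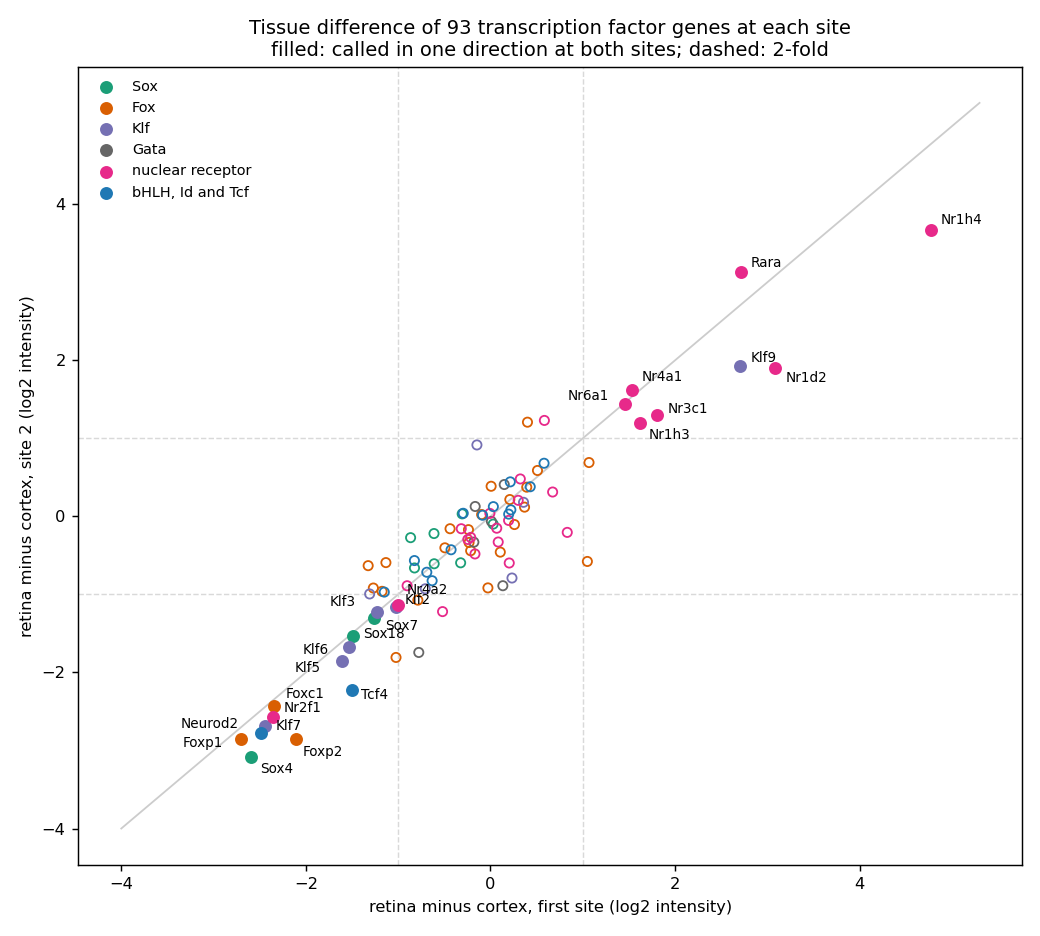
Retina minus cortex as a log2 difference at the first site (horizontal axis) and at site 2 (vertical axis), 1 point for each of the 93 tested members, coloured by family; filled points are the 23 called in the same direction at both sites, dashed lines mark 2-fold and the diagonal marks equal differences. Nr1h4 lies farthest to the right at 4.78 and 3.68, and Sox4 lowest at -2.60 and -3.09.

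The regions just before the starts of the genes that lead each list are shown so that the stretches of DNA can be read beside the levels. They are the 250 bases upstream of the start for the 3 members with the largest mean difference in each direction among those called at both sites with a single start in the table, from RefSeq on GRCm38.p6, with E-boxes (CANNTG, a palindrome, the site of bHLH proteins) in capitals. For the retina list these were Nr1h4 (chr10:89506659-89506908, minus strand), Nr1d2 (chr14:18239107-18239356, minus strand) and Klf9 (chr19:23140976-23141225, plus strand).
Nr1h4: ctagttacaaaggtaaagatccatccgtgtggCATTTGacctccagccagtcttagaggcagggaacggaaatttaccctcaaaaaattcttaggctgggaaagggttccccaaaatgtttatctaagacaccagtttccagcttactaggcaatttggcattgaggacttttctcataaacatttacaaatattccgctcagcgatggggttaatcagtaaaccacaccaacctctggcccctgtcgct
Nr1d2: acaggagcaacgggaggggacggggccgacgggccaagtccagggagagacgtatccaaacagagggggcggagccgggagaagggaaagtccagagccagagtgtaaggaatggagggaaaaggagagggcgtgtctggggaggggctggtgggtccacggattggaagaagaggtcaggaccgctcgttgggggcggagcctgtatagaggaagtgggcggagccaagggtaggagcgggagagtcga
Klf9: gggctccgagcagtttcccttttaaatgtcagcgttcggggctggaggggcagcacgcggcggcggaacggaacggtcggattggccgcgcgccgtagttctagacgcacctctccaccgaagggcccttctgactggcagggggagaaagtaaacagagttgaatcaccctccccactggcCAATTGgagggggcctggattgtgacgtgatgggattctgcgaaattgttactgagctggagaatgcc
For the cortex list they were Sox4 (chr13:28953700-28953949, minus strand), Neurod2 (chr11:98329646-98329895, minus strand) and Klf7 (chr1:64121390-64121639, minus strand).
Sox4: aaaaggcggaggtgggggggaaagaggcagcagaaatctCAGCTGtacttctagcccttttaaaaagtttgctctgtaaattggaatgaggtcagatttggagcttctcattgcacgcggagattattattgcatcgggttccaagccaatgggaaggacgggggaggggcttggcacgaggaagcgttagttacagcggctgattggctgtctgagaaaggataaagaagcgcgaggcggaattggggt
Neurod2: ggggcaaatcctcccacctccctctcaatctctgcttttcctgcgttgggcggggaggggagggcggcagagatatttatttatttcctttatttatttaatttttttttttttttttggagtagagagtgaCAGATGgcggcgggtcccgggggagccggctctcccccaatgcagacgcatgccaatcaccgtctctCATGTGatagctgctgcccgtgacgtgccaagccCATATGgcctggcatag
Klf7: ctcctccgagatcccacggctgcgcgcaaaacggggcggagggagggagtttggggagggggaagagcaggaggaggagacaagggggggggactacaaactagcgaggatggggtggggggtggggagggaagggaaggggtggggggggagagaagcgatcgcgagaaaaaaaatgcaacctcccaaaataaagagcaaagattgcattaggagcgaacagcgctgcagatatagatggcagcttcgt
Neurod2, itself an E-box binding factor, had 3 E-boxes in this window, Nr1h4, Klf9 and Sox4 had 1 each, and Nr1d2 and Klf7 had 0.

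Motifs were searched on both strands in all 32851 windows of this length in the table. At least 1 of 105 windows was found for 77 of the 97 members. CANNTG was in 66.7% of member windows and 66.2% of all windows, and CACGTG, the E-box form that clock proteins bind and a subset of CANNTG, was in 10.5% and 6.02%. GGGCGG, the GC box that Klf and Sp proteins can bind, was in 56.2% of member windows and 32.7% of all, where the median GC content was 61.2% and 52.4%. AGGTCA, a nuclear receptor half-site, was in 14.3% and 14.0%, and TATAAA was in 11.4% and 12.4%. Among the printed windows AGGTCA occurred once each in Nr1h4, where it shares bases with the E-box, in Nr1d2 and in Sox4, while GGGCGG occurred 3 times in Nr1d2, 2 times in Neurod2 and once in Klf7. A match is a stretch of letters and says nothing of binding.

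Nuclear receptors made up most of what was higher in retina. Of 25 tested, 7 were called higher (11.9% of all probes) and 2 lower (13%) in retina on the first-site arrays. At site 2 the numbers were 7 (11.1% of all probes) and 3 (13.5%). The 7 that were higher at both sites were Nr1h4, Rara, Nr1d2, Nr4a1, Nr3c1, Nr6a1 and Nr1h3. The family's median difference was 0.20 at the first site and -0.05 at site 2.

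Nr1h4 encodes the farnesoid X receptor, which binds bile acids and is best known in liver and intestine. It read 1.40, 1.29, 1.60, 1.21 and 1.11 in retina and 0.0366, 0.0497, 0.0587, 0.0311 and 0.0753 in cortex on first-site arrays. Site 2 gave 1.17, 1.16, 1.27, 1.18 and 1.06 in retina and 0.0857, 0.0868, 0.112, 0.107 and 0.0706 in cortex. All 10 retina arrays were above 1 and all 10 cortex arrays were near the low end of the scale, with no overlap. Retina was 27.4-fold higher at the first site (log2 difference 4.78 ± 0.19, SE; limma, adjusted p = 5.2e-14) and 12.8-fold higher at site 2 (3.68 ± 0.19; adjusted p = 2.7e-12). With intensities floored at the 25th percentile of all positive values, 0.195, which lies above every cortex value of this probe, the folds were 6.72 and 5.98.

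Rara, the alpha receptor for retinoic acid, was bright in retina. At the first site it read 81.2, 73.9, 77.2, 85.3 and 70.8 in retina against 9.68, 12.6, 12.7, 12.2 and 12.0 in cortex. The site 2 arrays gave 89.6, 94.6, 87.2 and 88.3 on the 4 retina arrays with a value and 10.5, 10.8, 10.4, 8.45 and 11.4 in cortex. Every retina array was far above every cortex array. The folds were 6.58 (2.72 ± 0.090, SE; limma, adjusted p = 1.1e-14) and 8.75 (3.13 ± 0.095; adjusted p = 3.9e-15).

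Nr1d2 encodes REV-ERB beta, a repressor in the daily clock. Its retina arrays gave 0.996, 0.978, 0.608, 1.03 and 1.00 at the first site and 0.658, 0.631, 0.709, 0.548 and 0.677 at site 2. Its cortex arrays gave 0.154, 0.104, 0.134, 0.0928 and 0.0716 and, at site 2, 0.336, 0.111, 0.206, 0.163 and 0.117. The tissues did not overlap, although first-site retina replicate 3 lay well under its partners and cortex replicate 1 was the highest of its group at both sites. Retina was 8.45-fold higher at the first site (limma, adjusted p = 3.8e-09), or 4.65-fold with the 25th-percentile floor of 0.195, and 3.75-fold higher at site 2 (adjusted p = 2.8e-06).

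Nr4a1 (NUR77) is an orphan receptor that neurons and other cells switch on rapidly after stimulation. In retina it read 1.83, 1.93, 1.79, 1.57 and 1.52 at the first site and 2.79, 2.65, 2.54, 2.69 and 2.39 at site 2. In cortex it read 0.536, 0.658, 0.536, 0.570 and 0.678 and 0.907, 0.845, 0.931, 0.929 and 0.676. Retina was above cortex on all arrays of each site, by 2.90-fold (limma, adjusted p = 8.2e-11) and 3.06-fold (adjusted p = 4.2e-11). Its relative Nr4a2 (NURR1), known for its part in dopamine neurons, went the other way. Nr4a2 ran from 0.587 to 0.679 in retina and 1.11 to 1.39 in cortex on first-site arrays, and from 0.505 to 0.667 and 1.19 to 1.31 at site 2, where 4 cortex arrays had a value. Cortex was higher by 2.01-fold (limma, adjusted p = 5.2e-09), just past the 2-fold limit, and by 2.19-fold (adjusted p = 2.3e-09). The first-site call of Nr4a2 ended under quantile normalization, where the log2 difference was -0.95, and without any 1 of 6 first-site arrays, where it lay just under 1 in size.

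Nr3c1, the glucocorticoid receptor, ran from 0.534 to 0.760 in retina and from 0.146 to 0.199 in cortex on first-site arrays, and from 0.566 to 0.739 and 0.223 to 0.295 at site 2. Retina was 3.49-fold and 2.47-fold higher (limma, adjusted p = 3.4e-11 and 4.2e-09) with no overlap. Nr1h3, the oxysterol receptor LXR alpha, was dim on all arrays, from 0.141 to 0.233 in retina and 0.0547 to 0.0693 in cortex on first-site arrays. Its folds of 3.07 and 2.30 (limma, adjusted p = 1.7e-07 and 8.7e-06) were 1.06 and 1.17 with the floor and were then not called. Nr6a1, the germ cell nuclear factor, was the only member with several probes. Its brighter probe was higher in retina by 2.75-fold and 2.72-fold (limma, adjusted p = 1.9e-09 and 2.4e-09), while its dimmer probe gave log2 differences of 0.71 and -0.33 that were not called (adjusted p = 0.296 and 0.636), so the probes of this gene disagree.

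**Figure D2:**
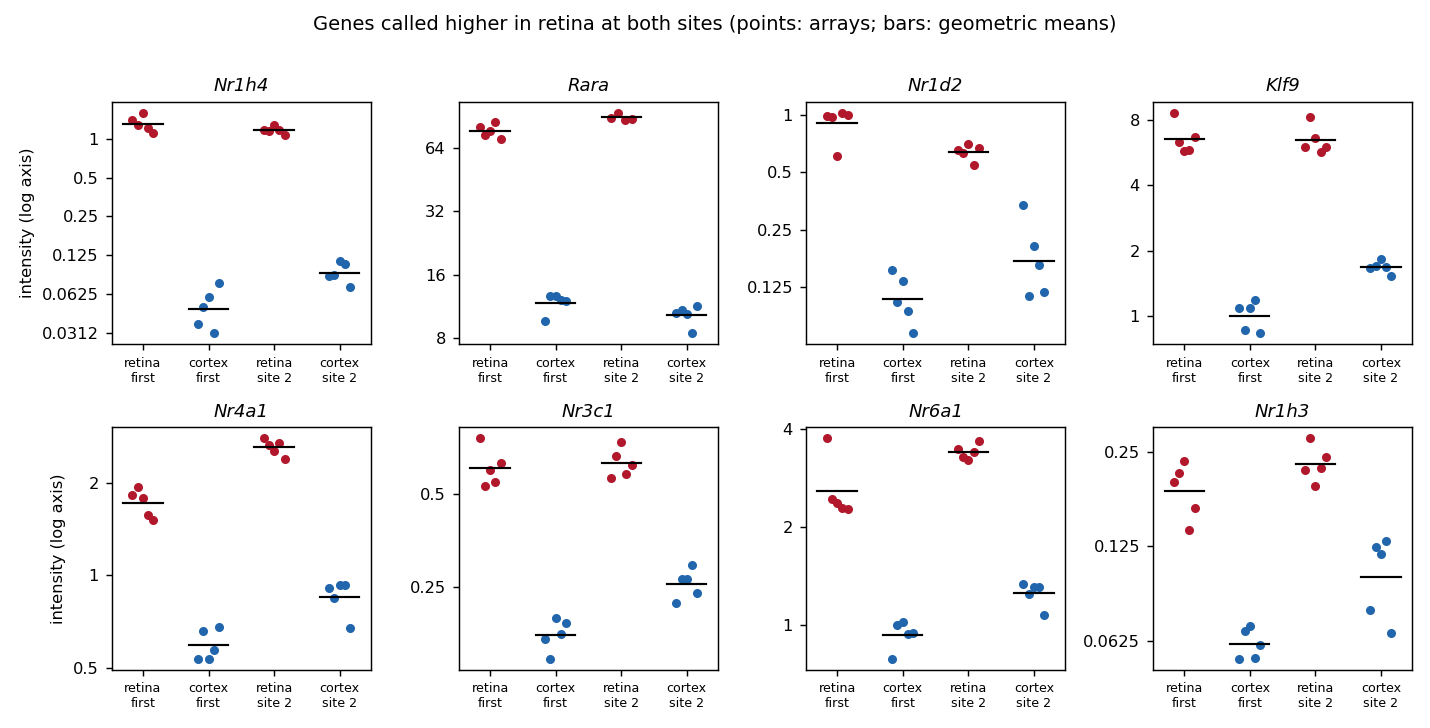
Intensity on a log axis of the 8 members higher in retina at both sites, 1 panel per gene and 1 point per array, with bars for the geometric mean of each group of 5 (retina and cortex on the first-site arrays, then at site 2). In every panel the retina points lie above the cortex points of their site, for example 70.8 to 85.3 against 9.68 to 12.7 for Rara at the first site.

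Toward cortex, the receptor with the largest difference at both sites was Nr2f1 (COUP-TFI), an orphan receptor that patterns the areas of the developing cortex. It read 1.46, 1.07, 1.12, 1.13 and 1.02 in retina and 5.44, 6.49, 5.56, 5.13 and 7.19 in cortex on first-site arrays. Site 2 values were 1.57, 1.27, 1.39, 1.35 and 1.30 in retina and 8.25, 8.52, 9.02, 8.06 and 7.16 in cortex. Every cortex array was far above the retina arrays of its site, by 5.13-fold (limma, adjusted p = 4.0e-13) and 5.96-fold (adjusted p = 1.1e-13) on average. Its close relative Nr2f2 (COUP-TFII) moved the same way by less than the 2-fold limit, 1.87-fold and 1.85-fold, with adjusted p of 1.4e-07 and 1.8e-07 by limma and no overlap. Nr0b2 (SHP), a repressor without a DNA-binding domain that Nr1h4 induces in liver, was called at site 2 alone, at 2.33-fold higher in cortex (limma, adjusted p = 2.7e-07). At the first site Nr0b2 was 1.43-fold higher in cortex (adjusted p = 0.0031), and the difference between sites was not called (adjusted p = 0.051).

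The remaining 15 tested receptors were called at neither site: Esr1, Esr2, Esrra, Esrrg, Nr0b1, Nr1i2, Nr1i3, Nr2f2, Nr2f6, Nr4a3, Nr5a2, Rarg, Rxra, Rxrb and Rxrg. Their log2 differences ran from -0.90 to 1.23, the latter of Rxra at site 2 with a limma adjusted p of 0.19. That value of Rxra rests on retina replicate 3 of site 2, which read 3.65 against 0.0786 to 0.0920 on its partners. Nr2f6, among the brightest of them, read 4.26 to 5.65 in retina and 4.98 to 6.16 in cortex on first-site arrays, ranges that overlap. Of the retinoid receptors, Rara alone was called, and Rarg, Rxra, Rxrb and Rxrg were not. Adjusted p was under 0.05 at either site in 7 of the 15, and at both sites in 2. Esrra read 3.36 on cortex replicate 5 of site 2 against 0.836 to 1.01 on its partners. Without this array Esrra was higher in retina at site 2 by 0.69 on the log2 scale (limma, adjusted p = 2.3e-06), under the 2-fold limit.

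Genes that make, carry or break down the ligands of these receptors were counted beside them. For this and the later gene lists, the all-probe shares at the first site were 11.9% higher in retina and 13% in cortex. At site 2 they were 11.1% and 13.5%. Of 10 tested genes of retinoid and thyroid hormone handling, 3 were higher in retina and 1 in cortex on the first-site arrays, and 4 and 2 at site 2, with medians of 0.36 and -0.06. Aldh1a1, an enzyme that makes retinoic acid, was higher in retina by 9.15-fold and 9.76-fold (limma, adjusted p = 1.2e-16 and 6.9e-17), Dhrs3, a retinal reductase, 6.18-fold and 5.85-fold, and Cyp26a1, which degrades retinoic acid, 4.67-fold and 3.30-fold. Aldh1a2, which also makes retinoic acid, was higher in cortex by 4.76-fold and 5.62-fold (adjusted p = 4.3e-04 and 1.6e-04). Of 10 coregulators tested, 3 were higher in retina on the first-site arrays and 2 at site 2, with 0 higher in cortex, where limma gave an unadjusted p under 0.05 in 3 at each site. The coactivators Ppargc1b (10.1-fold and 9.35-fold) and Ppargc1a (4.03-fold and 2.23-fold) were called at both sites.

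Of 10 tested clock genes besides Nr1d2, 6 were higher in retina and 1 in cortex on the first-site arrays, and 5 and 1 at site 2. Dbp, a clock output factor, was higher in retina by 12.6-fold and 13.9-fold, Per3 was 8.89-fold and 7.72-fold, and Arntl, the activator of the loop, was 2.96-fold and 3.57-fold. Npas2 was higher in cortex by 2.70-fold and 3.03-fold. The list's medians were 1.16 and 1.05. The hour at which the tissues were taken is not given in the sources used here. Of 14 immediate early genes, the class to which Nr4a1 belongs, 4 were higher in retina and 1 in cortex on the first-site arrays, and 3 and 1 at site 2. Fos was higher in retina by 7.08-fold and 4.19-fold, and Egr2 13.7-fold and 6.01-fold higher in cortex. Of 8 genes of the glucocorticoid response, 3 (Sgk1, Cebpd and Glul) were higher in retina at each site and 0 in cortex (unadjusted limma p under 0.05 in 2 and 1), with Sgk1 at 6.65-fold and 6.10-fold. Glul is also a marker of Müller glia, and 5 of 8 markers of astrocytes and Müller glia were higher in retina at each site, with sums of 187 to 215 in retina and 68.8 to 79.8 in cortex on the first-site arrays and of 153 to 168 and 46.6 to 51.0 at site 2. The part of cell composition in these differences was not tested.

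Klf genes, zinc finger factors with roles in axon growth, differentiation and vessels, split in their direction. Of 11 tested, 1 was higher in retina (11.9% of all probes) and 6 in cortex (13%) on the first-site arrays. At site 2 the numbers were 1 (11.1% of all probes) and 5 (13.5%), and the medians were -1.03 and -0.99. Klf9 was the member higher in retina, and Klf7, Klf5, Klf6, Klf3 and Klf2 were higher in cortex at both sites.

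Klf9, a factor that thyroid hormone and glucocorticoids induce and that increases in maturing neurons, read 8.62, 6.29, 5.75, 5.80 and 6.66 in retina and 1.10, 0.866, 1.09, 1.18 and 0.839 in cortex on first-site arrays. On site 2 arrays it read 6.0, 8.20, 6.57, 5.68 and 6.0 in retina and 1.67, 1.70, 1.83, 1.69 and 1.53 in cortex. Every retina array lay far above every cortex array of its site. Retina was 6.51-fold (2.70 ± 0.13, SE, limma, adjusted p = 5.5e-13) and 3.82-fold (1.93 ± 0.13, adjusted p = 8.7e-11) higher. The retina excess was smaller at site 2, with a limma adjusted p under 0.05 for the difference between sites, which was under the 2-fold limit.

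Klf7, a factor tied to axon outgrowth, read 0.927, 0.416, 0.220, 0.301 and 0.343 in retina and 1.97, 2.09, 2.36, 2.77 and 1.54 in cortex on first-site arrays. At site 2 it read 0.665, 0.678, 0.715, 0.605 and 0.918 in retina and 4.14, 4.90, 4.98, 4.47 and 4.41 in cortex. Retina replicate 1 of the first site was the highest of its group but still under every cortex array. Cortex was 5.43-fold (limma, adjusted p = 1.3e-07) and 6.45-fold (adjusted p = 3.5e-08) higher. Klf6, another Klf gene linked to axon growth, read 0.663, 0.574, 0.434, 0.473 and 0.559 in retina and 1.95, 1.70, 1.64, 1.55 and 1.03 in cortex on first-site arrays. At site 2 the values were 0.795, 0.701, 0.658, 0.707 and 0.651 in retina and 1.88, 2.26, 2.50, 2.30 and 2.31 in cortex. Cortex replicate 5 of the first site was the lowest of its group, and the tissues did not overlap. The folds towards cortex were 2.88 (limma, adjusted p = 1.9e-08) and 3.2 (adjusted p = 5.3e-09).

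Klf5, known for epithelial and proliferating cells, read 0.272, 0.223, 0.245, 0.281 and 0.241 in retina and 0.625, 0.705, 0.915, 0.794 and 0.841 in cortex on first-site arrays, and 0.269, 0.199, 0.279, 0.276 and 0.262 in retina and 0.884, 0.957, 1.00, 0.933 and 0.830 in cortex at site 2. All cortex arrays were above all retina arrays of their site, by 3.06-fold and 3.61-fold (limma, adjusted p = 1.8e-10 and 2.4e-11). Klf3, a repressor, read 0.118, 0.0993, 0.105, 0.0938 and 0.0919 in retina and 0.250, 0.206, 0.221, 0.212 and 0.314 in cortex on first-site arrays. The site 2 arrays gave 0.100, 0.133, 0.164, 0.115 and 0.0871 in retina and 0.238, 0.296, 0.272, 0.332 and 0.236 in cortex. Its folds of 2.35 and 2.33 towards cortex (limma, adjusted p = 1.1e-06 and 1.2e-06) were 1.22 and 1.40 with the 25th-percentile floor and not called. Klf2, a flow-responsive factor of endothelial cells, was higher in cortex by 2.04-fold and 2.24-fold (adjusted p = 8.6e-06 and 1.8e-06), and its first-site call ended under quantile normalization (log2 difference -0.997) and without any 1 of 3 first-site arrays. Klf4, a factor of stem cells and endothelium, was called at the first site (2.48-fold higher in cortex, limma, adjusted p = 2.7e-05) and lay at the limit at site 2 with 1.99-fold (adjusted p = 4.9e-04). Without cortex replicate 5, whose value of 0.182 fell among the retina arrays, Klf4 was called at site 2 as well, at -1.22 on the log2 scale.

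The 4 Klf genes called at neither site were Klf10, Klf12, Klf13 and Klf15. Klf10 was higher in cortex by 1.63-fold and 1.90-fold, with no overlap and adjusted p of 7.3e-08 and 1.5e-09 by limma, under the 2-fold limit. Klf12 ran from 1.03 to 1.30 in retina and 0.870 to 0.996 in cortex on first-site arrays, without overlap, and was not called (adjusted p = 0.13). Cortex replicate 5 of site 2 read 1.72, far above its partners, and through the shared variance it also entered the first-site p. Without this array Klf12 was higher in retina at site 2 by 0.45 on the log2 scale (limma, adjusted p = 2.1e-04), under the 2-fold limit.

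Sox genes leaned towards cortex. Of 10 tested, 9 had a negative sign at each site, a share that was not taken over all probes. At each site 3 were called higher in cortex (13% and 13.5% of all probes). Called higher in retina were 0 (11.9% and 11.1% of all probes), with an unadjusted limma p under 0.05 in 0. The medians were -0.72 and -0.60, beside -0.04 and -0.05 over all probes. The called genes were Sox4, a factor of newly formed neurons, and Sox18 and Sox7, which act in endothelial cells.

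Sox4 read 0.153, 0.0688, 0.112, 0.0816 and 0.0992 in retina and 0.732, 0.469, 0.712, 0.724 and 0.438 in cortex on first-site arrays. Site 2 values were 0.205, 0.171, 0.219, 0.182 and 0.204 in retina and 1.53, 1.76, 1.96, 1.76 and 1.35 in cortex. The lowest cortex array lay far above the highest retina array at each site. Cortex was 6.05-fold (-2.60 ± 0.19, SE; limma, adjusted p = 5.5e-10) and 8.49-fold higher (-3.09 ± 0.19; adjusted p = 4.5e-11), and with the 25th-percentile floor the first-site fold was 3.07.

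Sox18 read 0.275, 0.188, 0.190, 0.187 and 0.180 in retina and 0.544, 0.574, 0.575, 0.528 and 0.613 in cortex on first-site arrays, and 0.278, 0.219, 0.218, 0.257 and 0.218 in retina and 0.671, 0.782, 0.744, 0.781 and 0.494 in cortex at site 2. The tissues did not overlap, and the folds towards cortex were 2.81 and 2.89 (limma, adjusted p = 7.2e-09 and 5.1e-09). Sox7 read 0.144, 0.0911, 0.141, 0.164 and 0.162 in retina and 0.305, 0.395, 0.324, 0.190 and 0.525 in cortex on first-site arrays. On site 2 arrays it read 0.159, 0.741, 0.131, 0.121 and 0.146 in retina and 0.480, 0.480, 0.543, 0.537 and 0.362 in cortex. Retina replicate 2 of site 2 was above every cortex array there, which makes Sox7 the only one of the 23 members called at both sites whose groups overlapped. Cortex was 2.40-fold and 2.46-fold higher (limma, adjusted p = 0.0081 and 0.0068), and 3.43-fold at site 2 without that retina array. Both Sox7 calls ended with the 25th-percentile floor (adjusted p = 0.055 and 0.024, the latter with a difference under 2-fold).

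Endothelial markers, counted beside these vessel genes, went in both directions. Of 10 tested markers, 6 were higher in cortex and 2 in retina on the first-site arrays, and 5 and 1 at site 2, with summed intensities of 13.9 to 15.3 in retina and 17.2 to 21.1 in cortex on the first-site arrays and of 14.0 to 15.8 and 17.3 to 22.1 at site 2. Without Cldn5 alone the sums were higher in retina on the first-site arrays, at 11.4 to 12.5 against 7.27 to 9.20 in cortex, and overlapped at site 2, at 12.0 to 13.7 and 7.36 to 14.6. Cldn5, the tight junction claudin of brain vessels, was higher in cortex by 4.05-fold and 4.64-fold (limma, adjusted p = 1.3e-11 and 3.4e-12), while Kdr, the VEGF receptor, was higher in retina by 4.46-fold and 4.13-fold. The defining marker Cdh5 averaged 0.0613, 0.0876, 0.0464 and 0.0911 in the 4 groups (retina and cortex on the first-site arrays, then at site 2), near the low end of the scale. Their part in the differences of Sox7, Sox18 and Klf2 was not tested. Sox17, the third endothelial member of this subgroup, was called at neither site.

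The 7 Sox genes called at neither site were Sox2, Sox6, Sox8, Sox13, Sox14, Sox15 and Sox17, with log2 differences from -0.86 to 0.03. Sox2, a factor of neural progenitors and glia, read 1.26, 1.60, 1.64, 1.71 and 1.88 in retina and 3.48, 1.72, 3.53, 3.58 and 2.43 in cortex on first-site arrays, where cortex replicate 2 lay among the retina arrays. Its difference was 1.77-fold towards cortex on the first-site arrays and 1.58-fold at site 2 (limma, adjusted p = 4.1e-04 and 0.0028), and without that array it was called at the first site, at -1.003 on the log2 scale. Sox14, the other bright member, had overlapping groups at both sites. Markers of dividing cells, which many progenitors express, were higher in cortex in 6 of 7 genes at each site, with summed intensities of 21.1 to 24.1 in retina and 31.1 to 34.5 in cortex on the first-site arrays and of 13.5 to 15.4 and 26.1 to 29.2 at site 2. Pcna, a replication factor that was not called, made up most of the retina sums. Without it they ran from 0.498 to 0.660 in retina and 12.8 to 13.5 in cortex on the first-site arrays and from 0.670 to 0.883 and 12.7 to 14.4 at site 2. Mki67, a marker of cycling cells, was higher in cortex by 48.6-fold and 28.6-fold. Their part in the Sox differences was not tested.

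Among 26 tested Fox genes, 1 was called higher in retina (11.9% of all probes) and 7 higher in cortex (13%) on the first-site arrays. At site 2 the numbers were 1 (11.1% of all probes) and 5 (13.5%). The median differences were -0.22 and -0.42. Only Foxp1, Foxp2 and Foxc1 were called at both sites, all higher in cortex.

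Foxp1 and Foxp2 are repressors of developing and adult neurons, known in cortex and striatum. Foxp1 read 0.170, 0.176, 0.160, 0.131 and 0.106 in retina and 0.908, 1.09, 0.924, 1.07 and 0.810 in cortex on first-site arrays. At site 2 it read 0.295, 0.310, 0.290, 0.280 and 0.394 in retina and 2.60, 2.41, 2.06, 2.39 and 1.89 in cortex. Cortex was above retina on all arrays of each site, by 6.53-fold (-2.71 ± 0.14, SE; limma, adjusted p = 2.4e-12) and 7.25-fold (-2.86 ± 0.14; adjusted p = 1.1e-12). Foxp2 read 0.0453, 0.0597, 0.0508, 0.0630 and 0.0262 in retina and 0.233, 0.181, 0.220, 0.250 and 0.146 in cortex on first-site arrays. The site 2 arrays gave 0.0519, 0.0359, 0.104, 0.0787 and 0.0568 in retina and, on the 4 cortex arrays with a value, 0.422, 0.475, 0.550 and 0.355. The groups did not overlap, and the folds towards cortex were 4.31 (limma, adjusted p = 1.7e-06) and 7.25 (adjusted p = 7.2e-08). With the 25th-percentile floor they were 1.12, not called, and 2.28, still called.

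Foxc1, a factor of meninges, vessel mural cells and the anterior eye, read 0.142, 0.137, 0.137, 0.103 and 0.127 in retina and 0.577, 0.738, 0.644, 0.594 and 0.711 in cortex on first-site arrays. Site 2 values were 0.190, 0.150, 0.181, 0.234 and 0.263 in retina and 0.845, 0.830, 0.780, 0.936 and 2.78 in cortex. Cortex replicate 5 of site 2 was far above its partners, and the tissues did not overlap with or without it. Cortex was 5.07-fold and 5.38-fold higher (limma, adjusted p = 2.1e-07 and 1.3e-07), and without that array the log2 difference at site 2 was -2.08 in place of -2.43. With the 25th-percentile floor the first-site fold was 3.33. Connective tissue and meninges markers were higher in cortex in 7 of 7 genes at each site, with sums of 8.48 to 9.83 in retina and 32.4 to 37.6 in cortex on the first-site arrays and of 6.55 to 8.28 and 22.6 to 24.7 at site 2. Pdgfra, also counted as an oligodendrocyte lineage marker, was the brightest of them. Without it the sums were 3.75 to 4.39 in retina and 14.3 to 15.9 in cortex on the first-site arrays. At site 2 they were 3.78 to 5.62 and 13.0 to 15.2. Dcn, which encodes the matrix proteoglycan decorin, was higher in cortex by 19.0-fold and 18.9-fold. Their part in the Foxc1 difference was not tested.

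Other Fox genes were called at 1 site. Foxk2, a regulator of metabolism, was 2.50-fold higher in cortex on the first-site arrays and 1.55-fold at site 2 (limma, adjusted p = 8.7e-10 and 2.9e-05). Foxp4 (2.41-fold and 1.89-fold), Foxb1 (2.19-fold and 1.51-fold) and Foxd1 (2.26-fold and 1.95-fold) were likewise called higher in cortex on the first-site arrays alone, with limma adjusted p of 4.4e-05, 4.9e-06 and 8.1e-04 there. Foxd1, a factor of the ventral temporal embryonic retina, was at or under 0.219 on every array. Foxj2 was called higher in retina on the first-site arrays (2.10-fold, adjusted p = 8.5e-05) and not at site 2 (1.61-fold, adjusted p = 0.0045). For Foxb1, Foxd1, Foxj2 and Foxp4 the first-site call ended under at least 1 alternative setting (a floor, quantile normalization or an array left out).

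At site 2 alone, Foxi1, a factor of ion-transporting epithelium, was 2.31-fold higher in retina (limma, adjusted p = 3.9e-08), with 2.91, 2.39, 2.59, 3.24 and 2.98 in retina and 1.42, 1.26, 1.13 and 1.08 on the 4 cortex arrays with a value. At the first site it read 3.46, 3.18, 4.10, 3.50 and 3.27 in retina and 2.56, 3.27, 2.44, 2.41 and 2.61 in cortex, a 1.32-fold difference with 1 cortex array in the range of retina. Foxj1, the master factor of motile cilia, was 2.10-fold higher in cortex at site 2 (adjusted p = 2.0e-05) and 1.72-fold at the first site (adjusted p = 5.4e-04). It was at or under 0.209 on every array, and its call ended with the 25th-percentile floor, under quantile normalization and without site 2 cortex replicate 4 or retina replicate 5. Foxq1 was called at site 2 through a single array, as its values show beside those of Gata3. For the 12 members of all families called at 1 site, the difference between sites was not called at the 2-fold limit. Its adjusted p was under 0.05 for 2 of them, Foxi1 (0.81 on the log2 scale, limma, adjusted p = 0.0091) and Foxk2 (0.69, adjusted p = 0.011). Among the other members it was under 0.05 for Klf9, Klf13 and Nr1h4.

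The 15 Fox genes called at neither site were Foxa1, Foxa2, Foxa3, Foxd3, Foxd4, Foxf1, Foxf2, Foxh1, Foxl2, Foxm1, Foxn1, Foxn3, Foxo1, Foxo4 and Foxp3, with log2 differences from -0.92 to 1.05. Foxd4, the brightest of them with Foxa1, was higher in retina by 1.42-fold and 1.5-fold with no overlap (limma, adjusted p = 1.2e-04 and 2.4e-05), under the 2-fold limit. Foxa1 read 2.78 to 3.21 in retina and 2.37 to 2.74 in cortex on first-site arrays.

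**Figure D3:**
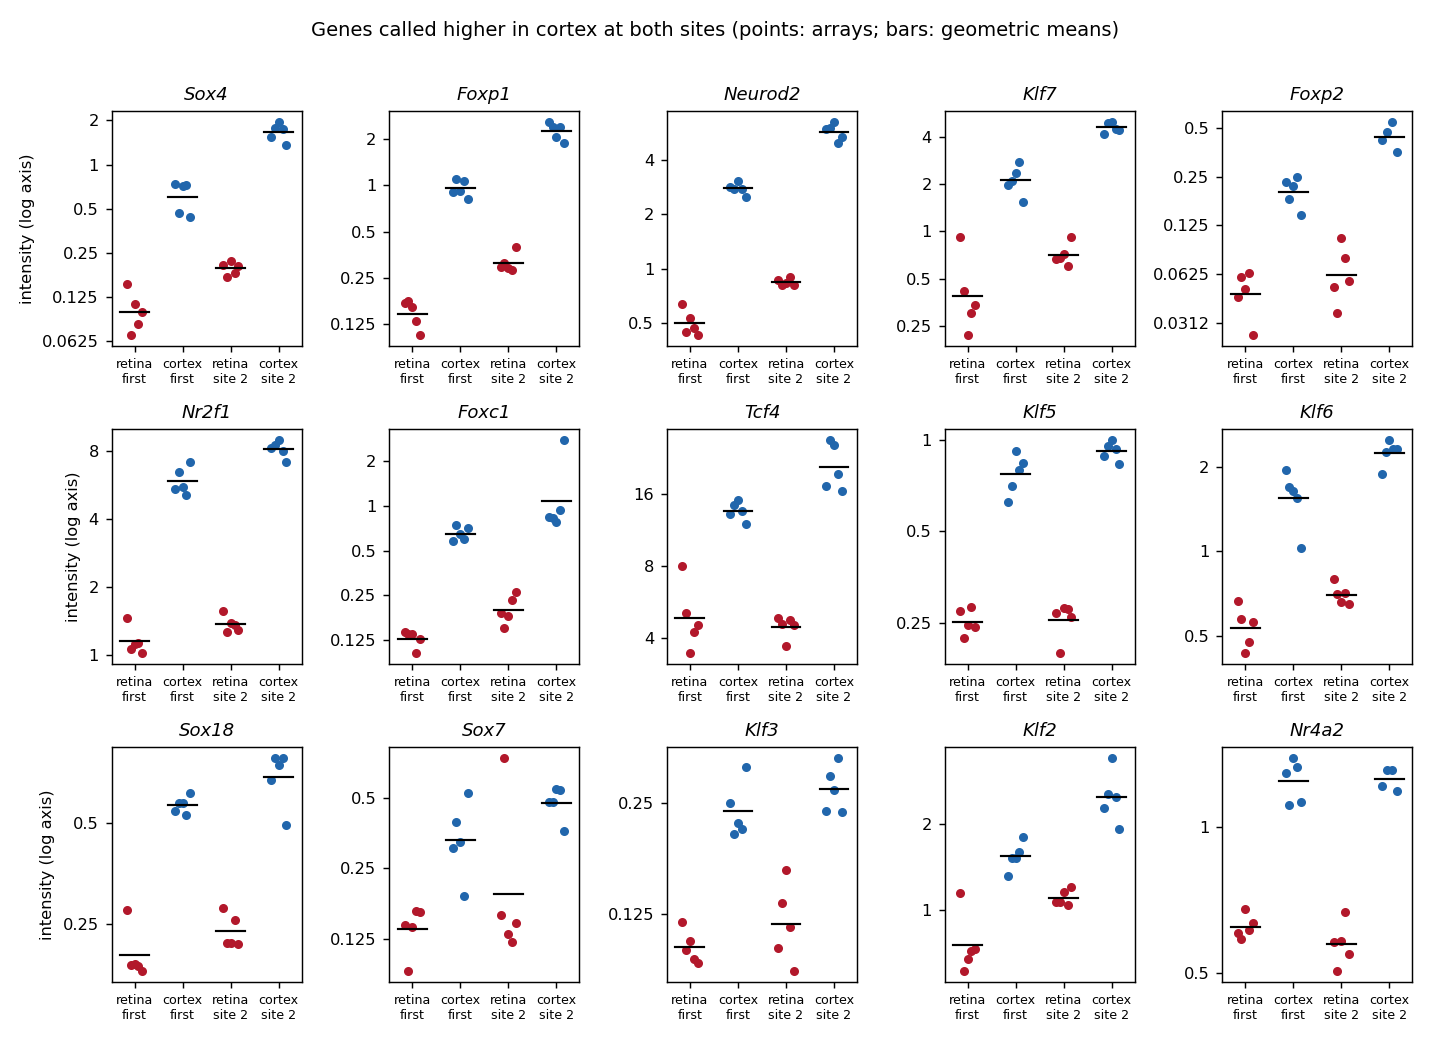
Intensity on a log axis of the 15 members higher in cortex at both sites, 1 panel per gene and 1 point per array, with bars for the geometric mean of each group of 5. Cortex points lie above the retina points of their site in every panel except Sox7, where retina replicate 2 of site 2 reads 0.741 above cortex arrays at 0.362 to 0.543.

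Among the bHLH genes, Neurod2, a differentiation factor of cortical excitatory neurons, was the only proneural member called. It read 0.633, 0.443, 0.533, 0.469 and 0.429 in retina and 2.84, 2.79, 3.08, 2.78 and 2.49 in cortex on first-site arrays. On site 2 arrays it read 0.863, 0.811, 0.83, 0.904 and 0.809 in retina and 5.95, 6.05, 6.56, 4.99 and 5.42 in cortex. The groups were far apart at both sites, with cortex 5.62-fold (-2.49 ± 0.100, SE; limma, adjusted p = 6.0e-14) and 6.85-fold higher (-2.78 ± 0.100; adjusted p = 1.2e-14). Neurog2, a proneural factor of cortical and retinal progenitors, ran from 0.191 to 0.278 in retina and 0.159 to 0.242 in cortex on first-site arrays, with adjusted p of 0.15 and 0.60. Ascl3 and Neurog3 were not called either.

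E proteins are the common partners of these factors. Tcf4, an E protein, read 7.97, 5.08, 3.45, 4.23 and 4.52 in retina and 13.2, 14.4, 15.2, 13.6 and 12.1 in cortex on first-site arrays. At site 2 it read 4.83, 4.55, 3.69, 4.73 and 4.54 in retina and 17.3, 27.1, 25.9, 19.5 and 16.5 in cortex. Retina replicate 1 of the first site was the highest retina array, and all cortex arrays lay above it. Cortex was 2.82-fold (limma, adjusted p = 6.2e-07) and 4.68-fold higher (adjusted p = 2.3e-09). Tcf3, which gives the E12 and E47 proteins, was higher in cortex by 1.61-fold and 1.64-fold with no overlap (limma, adjusted p = 2.3e-07 and 1.4e-07), under the 2-fold limit, and Tcf12 had folds towards retina of 1.16 and 1.36 (adjusted p = 0.089 and 0.0012).

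Id proteins sequester E proteins. Id4 was called higher in cortex on the first-site arrays, with 0.370, 0.430, 0.503, 0.363 and 0.418 in retina and 0.918, 0.832, 0.883, 1.08 and 0.893 in cortex (2.22-fold, limma, adjusted p = 1.2e-08). The site 2 arrays gave 0.420, 0.373, 0.346, 0.449 and 0.369 in retina and 0.712, 0.892, 0.740, 0.814 and 0.676 in cortex, a 1.96-fold difference just under the limit (adjusted p = 1.4e-07) with no overlap. Id1 was higher in cortex by 1.77-fold and 1.48-fold, and Id3 1.55-fold and 1.77-fold, without overlap at either site (limma, adjusted p = 6.2e-08 and 8.9e-06 for Id1, 1.5e-07 and 3.6e-09 for Id3). All 3 Id genes thus had lower intensities in retina on every array of both sites, and 1 of them passed the 2-fold limit, at 1 site.

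Some genes named Tcf are neither E proteins nor Lef/Tcf factors. Tcf21 and Tcf23 are bHLH factors, Tcf20 is a nuclear coregulator and Tcf25 a ribosome quality control factor, and none was called between tissues. Tcf21 ran from 39.9 to 55.6 in retina and 41.1 to 47.0 in cortex on first-site arrays, with adjusted p of 0.79. Tcf23 was higher in retina by 1.5-fold and 1.60-fold with no overlap (limma, adjusted p = 7.4e-04 and 1.6e-04). Tcf7l1, the Lef/Tcf member of the set and a repressor of Wnt targets, had overlapping groups at both sites (adjusted p = 0.16 and 0.85), and of 9 partners of the Lef/Tcf group 0 were called at the first site, where limma gave an unadjusted p under 0.05 in 5. At site 2, 1 of them, Axin2, was higher in retina and 1, Tle3, in cortex. Of 13 other bHLH genes tested, 5 were higher in retina and 1 in cortex on the first-site arrays, and 2 and 2 at site 2, led by Nhlh2, a neuronal bHLH factor, at 5.17-fold and 6.51-fold higher in retina.

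Gata genes are zinc finger factors of blood, endoderm and some neurons. Of 6 tested, 0 were called at the first site (24.9% of all probes were), where limma gave an unadjusted p under 0.05 in 0. At site 2, 1 was called, Gata3 (24.6% of all probes were). Gata3 read 0.0948, 0.215, 0.191, 0.214 and 0.179 in retina and 0.238, 0.263, 0.301, 0.325 and 0.358 in cortex on first-site arrays. Site 2 values were 0.221, 0.210, 0.191, 0.287 and 0.252 in retina and 0.473, 0.497, 0.494, 0.461 and 5.04 in cortex. Cortex replicate 5 was far above its partners, which lay close together. The fold towards cortex was 3.35 with all arrays (limma, adjusted p = 0.0042) and 2.09 without replicate 5 (adjusted p = 1.1e-04), so the call held at a smaller size. At the first site the Gata3 groups did not overlap, and the log2 difference was -0.78 (limma, adjusted p = 0.18). Once replicate 5 of site 2 no longer entered the shared variance, that adjusted p was 0.0012 at the same size, under the 2-fold limit. Gata4 and Gata5, the brightest of the other 5 (Gata1, Gata2, Gata4, Gata5 and Gata6), differed by 1.11-fold and 1.12-fold at the first site. Erythroid markers, which would accompany Gata1 in blood, were higher in cortex in 1 of 7 genes at the first site and in 2 at site 2, with sums of 15.2 to 18.9 in retina and 48.1 to 57.6 in cortex on the first-site arrays and of 12.1 to 15.4 and 53.7 to 69.5 at site 2. Hba-a1, a hemoglobin alpha gene, carried most of these sums, which without it were 3.51 to 4.31 in retina and 5.28 to 5.69 in cortex on the first-site arrays and 1.82 to 2.26 and 3.39 to 4.68 at site 2. Gata1 was not called between tissues at either site.

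Foxq1, a factor of epithelia and hair, depended on the same array for its call. It read 0.109, 0.143, 0.0539, 0.0586 and 0.0719 in retina and 0.167, 0.158, 0.138, 0.168 and 3.07 in cortex at site 2, where cortex replicate 5 alone was far above every retina array. With it the fold towards cortex was 3.50 (limma, adjusted p = 0.015), and without it 1.93, under the limit (adjusted p = 0.0011). At the first site Foxq1 was 2.03-fold higher in cortex with no overlap but adjusted p = 0.16. That first-site value was called, at the same size, once replicate 5 no longer entered the shared variance (adjusted p = 3.3e-04). Over all members, leaving out this array gave 30 called members at site 2 in place of 28: Foxq1 was lost, and Foxp4, Id4 and Klf4 were added.

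**Figure D4:**
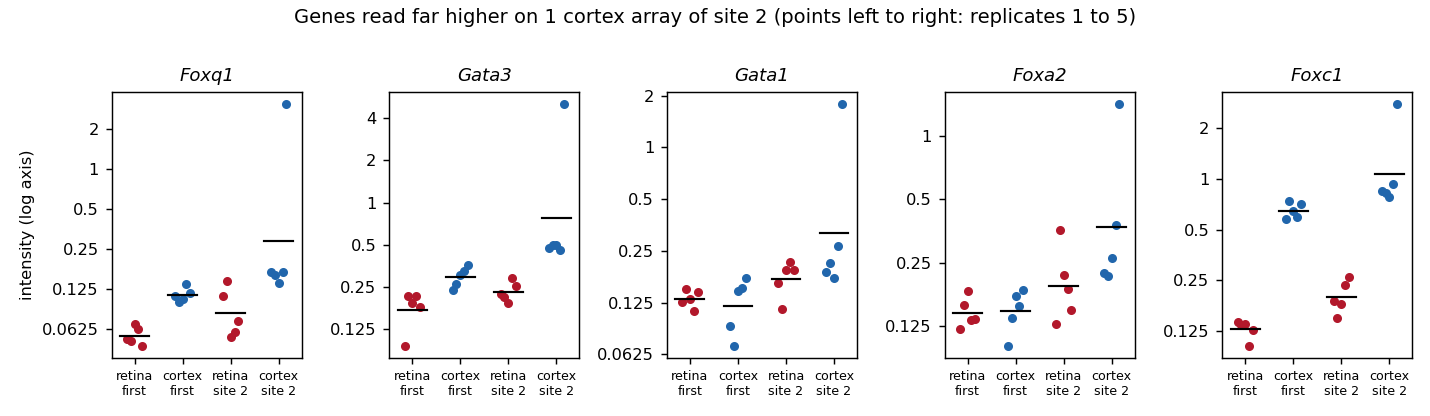
Intensity on a log axis of members for which cortex replicate 5 of site 2 read far higher than its partners, with 1 point per array. Points are coloured by tissue, and this array is the rightmost point of the site 2 cortex group. Foxq1 reads 3.07 on it against 0.138 to 0.168 on the 4 partners, and Gata3 5.04 against 0.461 to 0.497.

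The tissue difference itself differed between sites in 2 members, both with a smaller retina excess or a larger cortex excess at site 2, beside 0.725% of all probes called either way and 0.455% called in that direction. Klf13, a factor of the Klf9 subgroup, read 1.52, 0.940, 0.660, 0.780 and 0.892 in retina and 0.789, 0.895, 0.832, 0.768 and 0.649 in cortex on first-site arrays, and 1.25, 1.04, 1.14, 1.17 and 1.36 in retina and 3.27, 1.84, 1.95, 1.78 and 1.75 in cortex at site 2. The groups overlapped at the first site and cortex was above retina at site 2. The difference between sites was -1.02 ± 0.27 on the log2 scale (SE; limma, adjusted p = 0.041), with neither site's difference called on its own. For Nr1h4 the retina excess was smaller at site 2 by -1.10 (SE 0.27; limma, adjusted p = 0.028), and with the 25th-percentile floor, above all cortex values, by -0.17 (adjusted p = 0.34). Without cortex replicate 5 of site 2, 4 members were called, Esrrg, Klf13, Nr1d2 and Nr1h4. Leaving out single arrays ended the Klf13 call in 13 of 20 cases and the Nr1h4 call in 7 of 20.

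The tissue difference of photoreceptor markers also differed between sites. In 3 of 8 the retina excess was larger at site 2, and Gnat1, the rod transducin subunit, averaged 2.66 in cortex on the first-site arrays and 0.141 at site 2. Their part in the differences between sites was not tested.

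The same RNA run at both sites gave different levels for some members. In retina 6 members differed between sites (6.24% of all probes did) and in cortex 15 (7.21%). Groups of the same RNA did not overlap in 29 members in retina (39.1% of all probes) and in 32 in cortex (31.9%). Foxk2, Foxo1, Foxp1, Sox15 and Tcf25 were higher at site 2 in retina (4.79% of all probes were) and Tcf3 lower (1.45%). In cortex Foxa2, Foxh1, Foxj2, Foxo1, Foxp1, Foxp2, Gata1, Gata3, Klf13, Klf7, Sox4, Rarg and Neurod2 were higher at site 2 (5.29% of all probes), and Foxi1 and Tcf3 lower (1.92%). Foxo1, a target of insulin signalling, was 2.72-fold higher at site 2 in retina and 3.23-fold in cortex (limma, adjusted p = 9.6e-07 and 9.3e-08), and its tissue differences were not called at either site. Tcf3 was 2.39-fold and 2.35-fold lower at site 2 in retina and cortex, so that its retina-to-cortex ratio was nearly the same at the sites (-0.69 and -0.72). Without cortex replicate 5, Foxa2, Gata1 and Gata3 were no longer called between the sites in cortex, and Nr1h4 was, higher at site 2 by 1.02 on the log2 scale (limma, adjusted p = 3.1e-04).

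The spread between arrays was larger for dim members. The median SD of log2 intensity over members was 0.216, 0.180, 0.172 and 0.211 in retina and cortex on the first-site arrays and at site 2, beside 0.162, 0.165, 0.158 and 0.225 over all probes. For members at or above an intensity of 1 it was 0.145, 0.149, 0.120 and 0.171, and for those under the 25th percentile 0.315, 0.326, 0.372 and 0.397. Of the 97 members, 18 lay under that percentile in all 4 groups, and 2 of these, Foxd1 and Foxj1, were called at a site, beside 10.2% of all probes that lay under it in the same way.

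For 4 members, Olig2, Foxc2, Nr2c1 and Tcf15, fewer than 3 of 5 values were present in a site 2 group, and they entered no count above. Their first-site values come from a fit without that filter. Olig2, the oligodendrocyte and motor neuron bHLH factor, read 0.0769, 0.0577, 0.0303, 0.0385 and 0.0547 in retina and 0.607, 0.423, 0.612, 0.669 and 0.599 in cortex, an 11.7-fold difference towards cortex with no overlap (limma, adjusted p = 1.6e-07). Foxc2, the relative of Foxc1, read 0.106, 0.0418, 0.0389, 0.0284 and 0.0510 in retina and 0.265, 0.253, 0.265, 0.212 and 0.280 in cortex, 5.31-fold higher in cortex (adjusted p = 2.7e-05). All of these retina values of Olig2 and Foxc2 lay under the floor of 0.195 used for other dim members. The Foxc2 cortex values lay just above it. No fold with that floor is given for Olig2 or Foxc2, so the sizes of their folds are not firm. Nr2c1, an orphan receptor, read 1.09, 1.13, 1.38, 1.06 and 1.05 in retina and 0.348, 0.374, 0.383, 0.294 and 0.298 in cortex, 3.37-fold higher in retina (adjusted p = 8.9e-08), and Tcf15, a bHLH factor of somites, was 2.16-fold higher in retina (adjusted p = 2.2e-06). Of 5 oligodendrocyte lineage markers, 4 were higher in cortex at each site. They included Pdgfra, also counted as a connective tissue marker, at 3.87-fold and 3.30-fold. The 5 also included Mog, a myelin gene that was near the low end of the scale in all groups. Their part in the Olig2 difference was not tested.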

How the data were processed

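Values are the deposited intensities, 1 per probe and array on a linear scale, for 10500 probes on 20 CodeLink arrays. Per the labels, RNA was labelled by the CodeLink Expression Assay protocol. For the authors' scanner software, background step and scaling, each is not given in the sources used here. To judge by the values, background was subtracted (143 values at or below 0), arrays were scaled to a like median (the log2 medians differed by at most 0.0594), and 2080 values were blank. That scaling was kept. An unknown background step makes folds of dim probes uncertain, which the floor settings address.

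Genes were named from the platform annotation, and a gene with several probes was read from its probe of highest mean log2 value. All 97 Entrez identifiers were found in the RefSeq table of GRCm38.p6, with 0 changed symbols. Values at or below 0 were taken as missing, and a probe needed at least 3 of 5 values in each group, which kept 10339 probes and 93 members. With limma 3.58.1 in R 4.3.3, 1 model with 4 group means was fitted to log2 intensity of all 20 arrays (lmFit, eBayes), with 2-sided p-values adjusted by Benjamini-Hochberg over all probes tested. Called means adjusted p under 0.05 and at least 2-fold. On simulated data for retina against cortex at the first site (10339 probes), 92 of 100 probes changed by 1.5 on the log2 scale and 97 of 100 changed by 3 were recovered, with 1 false call. The simulated arrays had normal noise around 1 mean per probe, no site effect and no array that stood apart. These rates therefore need not hold for the real arrays. Tables and plots used Python 3.11.15 with numpy 2.4.6, pandas 2.3.3 and matplotlib 3.10.9.

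Members are named with values where they were called at either site or differed between sites, with the 2 brightest uncalled members of each family; those called at both sites and among the 4 largest of their family and direction have every array's value, as do a few others shown for an array that stands apart, chosen after their values were seen. The members and all gene lists were chosen with earlier results of these data known, so their counts are descriptions. Alternatives were floors at the 5th and 25th percentile, quantile normalization, filters on dim and on missing values, an intensity trend, only the contrast's groups, the replicate block, the dimmer probe and each array left out.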

Additional observations from a re-analysis of the deposited data

Results flagged for a closer look

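Single arrays stood apart from their 4 partners in 28 of 228 groups of a named member (12.3%), by the gap to the nearest partner as a share of the range, where chance gives about 1 in 20. Over all probes the same test marked cortex replicate 5 of site 2 in 17.7%, and each of the other 19 arrays in 0.170% to 3.27%. These shares are per array and the 12.3% is per group, so the 12.3% is not read as particular to the members. Cortex replicate 5 of site 2 did so in Foxc1 (2.78 against 0.780 to 0.936), Foxq1 (3.07), Gata3 (5.04) and Klf12 (1.72 against 0.594 to 0.755), all high, and in Foxd4 (2.43 against 3.11 to 3.39), low. Other site 2 cortex arrays were replicate 1 in Klf13 (3.27, high), and replicate 4 in Foxj1 (0.209, high) and Rara (8.45 against 10.4 to 11.4, low).

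First-site retina replicate 1 was high in Klf2 (1.14), Sox18 (0.275), Nr2f1 (1.46) and Nr6a1 (3.74 against 2.28 to 2.44) and low in Gata3 (0.0948). Other first-site retina arrays were replicate 2 in Sox7 (0.0911, low) and replicate 3 in Nr1d2 (0.608 against 0.978 to 1.03, low). In site 2 retina, replicate 1 was high in Foxd1 (0.138) and Tcf7l1 (0.458), replicate 2 was high in Sox7 (0.741) and low in Klf5 (0.199), replicate 3 was high in Tcf12 (4.30) and low in Tcf4 (3.69), and replicate 4 was high in Foxd4 (5.26).

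In first-site cortex, replicate 1 was high in Foxd1 (0.219) and low in Rara (9.68 against 12.0 to 12.7), replicate 2 was high in Foxi1 (3.27) and low in Foxp4 (0.217) and Tcf20 (0.0832), and replicate 3 was low in Foxj1 (0.123). Each of these is a value of 1 array of the same RNA as its partners.

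The tissue difference of Klf13 differed between sites by -1.02 on the log2 scale and that of Nr1h4 by -1.10 (limma, adjusted p = 0.041 and 0.028), and both values lose the call under the replicate block.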

How the results depend on the processing

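Of the called differences between tissues of named members, 1 changed sign under a setting run: that of Nr6a1 at site 2, where its dimmer probe gave -0.33. Among those not called, 6 did, all within 0.13 of 0 on the log2 scale (Ascl3, Gata5, Sox14, Tcf21, Tcf25 and Tcf7l1). Calls between tissues that held in all 7 settings run on all arrays (beside the filter on dim probes) and without each of 20 arrays numbered 20 of 30 for the first site and 23 of 28 for site 2. The 25th-percentile floor ended 7 first-site calls (Foxd1, Foxj2, Foxp2, Foxp4, Klf3, Nr1h3 and Sox7) and 5 at site 2 (Foxj1, Foxq1, Klf3, Nr1h3 and Sox7). Quantile normalization ended 5 at the first site (Foxb1, Foxd1, Klf2, Klf3 and Nr4a2) and 1 at site 2 (Foxj1), and added Foxj2 and Nr2f2 at site 2. A dim member therefore has no firm fold.

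Counts between sites moved most. With the filter on dim probes, cortex members higher at site 2 numbered 8 in place of 13, and 367 probes in retina and 444 in cortex were called in place of 645 and 745; the fewer probes tested enter these counts. With the 25th-percentile floor the counts were 3 retina members in place of 5, 8 cortex members, and 312 and 396 probes. Quantile normalization gave 3 retina and 7 cortex members higher at site 2. Without the filter on missing values 2 retina members were lower at site 2 in place of 1. Members whose tissue difference differed between sites, 2 with the main setting, both lower at site 2, numbered 1 with the 5th-percentile floor and 1 under quantile normalization. The cause was not tested.

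Same-numbered arrays did not deviate together (r from -0.08 to -0.02 over 5 pairs of the first site and from 0.0034 to 0.043 for site 2, with 0 of 5 arrays closest to their own number at each), so the replicate number does not pair the samples. With it as a replicate block, tissue calls of named members did not change, 0 members differed between sites in place of 2 (adjusted p = 0.11 for Klf13 and 0.090 for Nr1h4 by limma), and 24 probes did in place of 75. The site contrasts could not be fitted with this block.

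Without single arrays, called members ranged from 27 to 31 for the first site, from 27 to 30 for site 2 and from 21 to 26 for both. Members that differed between sites ranged from 0 to 4, all lower at site 2, and probes from 56 to 121, the highest without cortex replicate 5 of site 2. Between sites, 5 to 8 retina members (4 to 7 higher) and 13 to 17 cortex members (11 to 15 higher) were called. Of 18 members under the 25th percentile in all groups, 2 were called at a site, beside 10.2% of such probes.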
